A study of Mus musculus with 12 samples.

Results

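The 9 genes described here take part in making proteins or the machinery that makes them: the ribosomal proteins Rps20 and Rpl30, the poly(A)-binding protein Pabpc1, the ribosome assembly factors Brix1 and Mdn1, the RNase P and RNase MRP subunit Pop1, the RNA polymerase I subunit Polr1e, and the tRNA ligases Tars and Rars2. They are 9 of the 56923 rows of the deposited table, picked by function and by position, though with earlier results of these data known. The study measured messenger RNA in brain sections of WT (wild-type) mice after 5 hours in artificial cerebrospinal fluid (aCSF), a salt solution that keeps tissue alive outside the body, or in the same solution plus L-fucose, a sugar that cells attach to glycoproteins. Each group held 6 libraries. Both groups share the genotype, the sectioning and the 5 hours in aCSF. Neither the strain, age, brain region nor L-fucose concentration is stated in the labels, and nothing there says that the libraries came from separate animals, so p-values measure only the spread between these libraries.

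Position mattered because the row names are not equally reliable across the table. Over much of it the levels do not follow the coding exons of the named gene at its own place in the genome, whereas in a few regions they do, and rows there are called in register. All 9 genes lie in or beside such regions on chromosomes 4 and 15. Rps20, Rpl30, Pabpc1, Pop1, Mdn1, Polr1e and Rars2 were in register at every window that held them. For Brix1 0 of 4 windows and for Tars 1 of 4 had their best match with row positions moved by at most 500 bp. The remaining windows matched best at 1000 bp, so these names are a little less certain. They lie on chromosome 15 before 16.6 Mb, where the rows did not meet the 500 bp limit and were kept because the rule that picked the genes covers them; Dnajc21, Capsl, Spef2 and Prlr, named below, lie there too. Rows called in register below include this stretch. Polr1e starts at 45018583 on chromosome 4, just outside the edge used to pick the genes, but inside the region of 44.3 to 55.47 Mb found in register here.

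Protein synthesis starts from ribosomes, which are built in the nucleolus. There RNA polymerase I transcribes ribosomal RNA, which is cut, folded and joined with ribosomal proteins by assembly factors. In the cytoplasm, tRNA ligases load each tRNA with its amino acid, and poly(A)-binding protein sits on the tail of messenger RNA, where it helps translation start and protects the message. Neurons also translate in dendrites and axons, far from the nucleus, and messages for ribosomal proteins are among those found there.

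The start regions of 5 of the 9 genes could be read from RefSeq (GRCm38.p6), and they are shown because genes of this kind often have promoters without a TATA box. The remaining Rps20, Rpl30, Pabpc1 and Pop1 had no entry. Each line runs 5′ to 3′ on the gene's strand, from 30 bases before to 20 bases after the annotated start. Capitals mark the ETS core CCGGAA, or TTCCGG where it reads on the other strand.
Brix1 (chr15:10485918-10485967, minus strand): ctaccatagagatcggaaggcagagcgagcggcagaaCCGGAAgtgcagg
Mdn1 (chr4:32657089-32657138, plus strand): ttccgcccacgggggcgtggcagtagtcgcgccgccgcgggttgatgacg
Polr1e (chr4:45018579-45018628, plus strand): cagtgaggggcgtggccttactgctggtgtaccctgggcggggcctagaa
Tars (chr15:11399639-11399688, minus strand): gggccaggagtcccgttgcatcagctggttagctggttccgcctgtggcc
Rars2 (chr4:34614927-34614976, plus strand): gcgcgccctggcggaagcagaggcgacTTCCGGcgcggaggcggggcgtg
Brix1 and Rars2 hold the ETS core in this stretch, as do 5.16% of all 32851 promoters in the table. Searched over the whole 300 bases (250 before to 50 after the start) and on both strands, CCGGAA occurred in Brix1, Polr1e and Rars2, against 14.9% of all promoters. The E-box CACGTG occurred in Mdn1 and Tars, against 7.15%. TATAAA occurred in none of the 5, against 13.6%. A run of at least 5 pyrimidines that opens with C and starts within 5 bases of the annotated start, the form of the 5′ tract of ribosomal protein messages, was met by Rars2 alone of the 5 and by 12.4% of all promoters. These matches describe letters and say nothing about binding.

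Per library, 9191687 (aCSF 4) to 18563078 (L-fucose 2) reads were counted. Libraries aCSF 5 and aCSF 6 stood apart from the rest: 41.94% and 44.85% of their reads fell on mitochondrial rows, against 27.58% to 40.52% elsewhere, and 14340 and 14856 rows were above 0, against at least 16514. Results are therefore also given without both. Among markers in register, the summed neuronal rows (Gabbr2, Grin3a, Basp1) covered 33394 to 36879 normalized reads in aCSF and 33298 to 37449 in L-fucose. Forebrain GABAergic rows (Penk, Dlx6, Dlx5, Tac1, Foxp2) covered 4704 to 12260 and 8563 to 15182. Penk weighed most in that sum, with means of 6171 ± 2192 in aCSF and 9059 ± 1958 in L-fucose (SD, n = 6 each). The next highest row, Tac1, had means of 1296 and 1451. All 5 estimates were positive, and Penk alone had an unadjusted limma p under 0.05 (limma adjusted p = 0.827). Choroid plexus and ependyma rows covered 456 to 986 and 314 to 572. Cfap206 met the 500 bp limit, and Capsl, Spef2 and Prlr, in the less certain stretch of chromosome 15, did not. All 4 were lower with L-fucose (median log2 fold change -0.78). Of these, 3 had an unadjusted limma p under 0.05, beside 5.96% of all tested rows, and 0 passed the adjusted threshold of 0.05. The astrocyte row Fut9 covered 1602 to 2819 and 1563 to 2048, the vascular row Cav1 491 to 702 and 438 to 625.4, the fibroblast row Col1a2 381 to 670 and 527 to 663, and the erythroid row Hemgn 0 to 1.97 and 0. Markers of oligodendrocytes and microglia had 0 rows in register. The part of tissue composition in the values below was not tested, and in bulk tissue fewer cells of a type and less RNA per cell cannot be told apart.

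No difference between the groups was detected for any of the 9 genes, and the estimates were small. All 9 were measured well above the low-value limit of 10 normalized reads in 6 libraries. Of these, 0 passed an adjusted p of 0.05 (limma, Benjamini-Hochberg over 10787 rows), and 0 of all 10787 rows did (0%). At an unadjusted p under 0.05, limma called 0 of the 9, against 643 rows or 5.96% of all tested (2.79% lower and 3.17% higher with L-fucose). Without aCSF 5 and 6 it also called 0 of the 9, against 11.3% of rows (5.92% lower and 5.37% higher), and 0 of 10425 rows passed the adjusted threshold. DESeq2 on the recovered reads called 1 row, not one of the 9. The estimated log2 fold changes were positive for 3 genes and negative for 6, with a median of -0.01. Over all tested rows 5614 were positive and 5173 negative (median 0.01), and over the 345 in register 136 and 209 (median -0.05). All 9 intervals at 95% held 0, and all 9 lay within 0.5 log2 units of 0, which 3483 of the 10787 tested rows also did. That bound holds for all 12 libraries with the deposited scaling: the upper limit of Rars2 was 0.498, and its estimate rose from 0.20 to 0.26 both with size factors from rows in register and without aCSF 1.

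**Figure D1:**
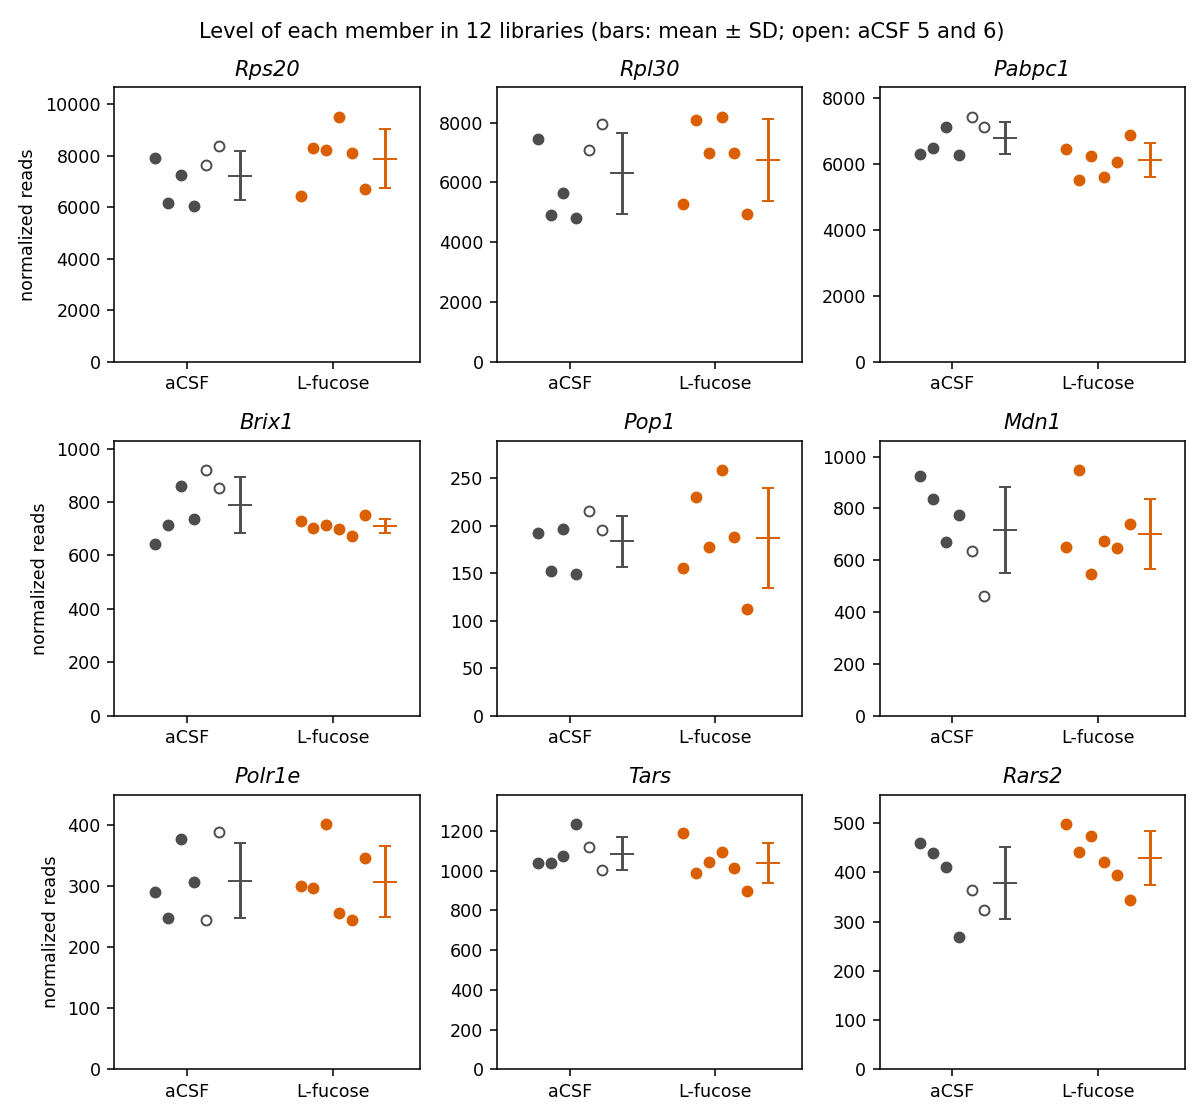
Normalized reads of the 9 genes in each of 12 libraries, 6 aCSF (grey) and 6 L-fucose (orange), with the mean and SD of each group beside the points; open points are aCSF 5 and 6. The groups overlap for every gene, and Brix1 is the one whose L-fucose values (674 to 750) span much less than the aCSF values (643 to 919).

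Among the ribosomal proteins, Rps20 is a protein of the small subunit, annotated on the minus strand of chromosome 4 from 3831334 to 3835665 (GRCm38, as for all positions here). Its level was 6041 to 8402 normalized reads in aCSF (median 7440) and 6442 to 9524 in L-fucose (median 8180). The groups overlapped, and 4 of 6 L-fucose values exceeded the median of the aCSF group, the highest in L-fucose 4. Means were 7236 ± 950 (SD, n = 6) and 7892 ± 1142 (SD, n = 6), giving a log2 fold change of 0.12 (SE 0.11; 95% interval -0.10 to 0.35; limma adjusted p = 0.888). Without aCSF 5 and 6 the estimate was 0.20 (limma adjusted p = 0.486).

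Rpl30 (chromosome 15, 34440505 to 34443640, minus strand) is a protein of the large subunit whose yeast counterpart also binds its own transcript. It was measured at 4811 to 7959 normalized reads in aCSF (median 6358) and 4940 to 8195 in L-fucose (median 6970). Both groups held low and high libraries: aCSF 2, aCSF 4, L-fucose 1 and L-fucose 6 lay between 4811 and 5286 normalized reads, and aCSF 6, L-fucose 2 and L-fucose 4 between 7959 and 8195. For Rpl30 the log2 fold change came to 0.10 (SE 0.14; 95% interval -0.20 to 0.40; limma adjusted p = 0.939), and 0.24 without aCSF 5 and 6 (limma adjusted p = 0.517). It fell to 0.03 without aCSF 4 and reached 0.18 without L-fucose 6. Reads of this gene are less certain than those of the others. Of its 1108 stretches of 50 bases, 807 (72.8%) recur in transcripts of 17 other genes, 16 of them pseudogenes. Of its exon bases, 24.8% are shared with other annotated genes, 20.4% with one on the opposite strand. That opposite-strand gene is the only one of the 17 that is no pseudogene, and it held 558 of the stretches. No pseudogene held more than 249. For Rps20 the recurring stretches were 7.57% and for Pabpc1 19.1%. They were 0.278% for Tars and 0% for the remaining 5.

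Pabpc1 (chromosome 15, 36595661 to 36609668, minus strand), the main cytoplasmic poly(A)-binding protein, had the lowest adjusted p of the 9. Its level was 6247 to 7421 normalized reads in aCSF (median 6789) and 5506 to 6869 in L-fucose (median 6142). Of the L-fucose libraries 5 of 6 lay below the aCSF median, and the ranges overlapped between 6247 and 6869. Means were 6777 ± 495 and 6116 ± 515 (SD, n = 6 each). The estimated log2 fold change was -0.15 (SE 0.08; 95% interval -0.32 to 0.02; limma adjusted p = 0.848). Without aCSF 5 and 6, which held 2 of its 3 highest values, it was -0.10 (limma adjusted p = 0.660).

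The assembly factors and processing subunits were spread more widely in level than in response. Brix1 (chromosome 15, 10474779 to 10485947, minus strand) is a factor for the large subunit. It ranged from 643 to 919 normalized reads in aCSF (median 796) and from 674 to 750 in L-fucose (median 708). All 6 L-fucose libraries lay below the aCSF median, yet aCSF 1 lay below all 6 of them, so the ranges overlapped. The estimated log2 fold change was -0.14 (SE 0.11; limma adjusted p = 0.882), and without aCSF 5 and 6, which held 2 of its 3 highest values, it was -0.05 (limma adjusted p = 0.884).

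Mdn1 (chromosome 4, 32657119 to 32775217, plus strand), or midasin, is a very large ATPase that strips assembly factors from the maturing large subunit. Its principal transcript is 17959 bases in 102 exons. Its level was 460 to 924 normalized reads in aCSF (median 722) and 545 to 946 in L-fucose (median 663). The lowest value was in aCSF 6 and the highest in L-fucose 2. This gave a log2 fold change of -0.02 (SE 0.16; limma adjusted p = 0.989). Without aCSF 5 and 6 it was -0.20 (limma adjusted p = 0.566), since both had lower Mdn1 than the other 4 aCSF libraries.

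Pop1 (chromosome 15, 34495304 to 34530648, plus strand) is a large protein subunit of RNase P, which trims the 5′ end of tRNA, and of RNase MRP, which cuts ribosomal RNA. Its level was 149 to 215 normalized reads in aCSF (median 194) and 112 to 258 in L-fucose (median 183). Both the lowest library (L-fucose 6) and the highest (L-fucose 4) belonged to the L-fucose group. The means of 184 ± 26.7 and 187 ± 52.4 (SD, n = 6 each) gave a log2 fold change of -0.01 (SE 0.19; limma adjusted p = 0.995).

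Polr1e (chromosome 4, 45018583 to 45036565, plus strand) encodes a subunit of RNA polymerase I. Its level was 245 to 388 normalized reads in aCSF (median 298) and 243 to 401 in L-fucose (median 298). The estimated log2 fold change was -0.01 (SE 0.16; limma adjusted p = 0.998), and the 2 medians lay nearest to each other of the 9 pairs.

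Of the tRNA ligases, Tars (chromosome 15, 11382301 to 11399665, minus strand) loads threonine in the cytoplasm. It was measured at 1005 to 1234 normalized reads in aCSF (median 1057) and 899 to 1189 in L-fucose (median 1027). Tars gave a log2 fold change of -0.07 (SE 0.10; 95% interval -0.27 to 0.13; limma adjusted p = 0.939). Rars2 (chromosome 4, 34614957 to 34660167, plus strand) loads arginine in mitochondria. It was measured at 268 to 459 normalized reads in aCSF (median 387) and 345 to 498 in L-fucose (median 431). Rars2 was above the aCSF median in 5 of 6 L-fucose libraries, and its log2 fold change of 0.20 was the largest in size of the 9. The SE was 0.14 (95% interval -0.10 to 0.50; limma adjusted p = 0.872), and without aCSF 5 and 6 the estimate was 0.14 (limma adjusted p = 0.747).

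**Figure D2:**
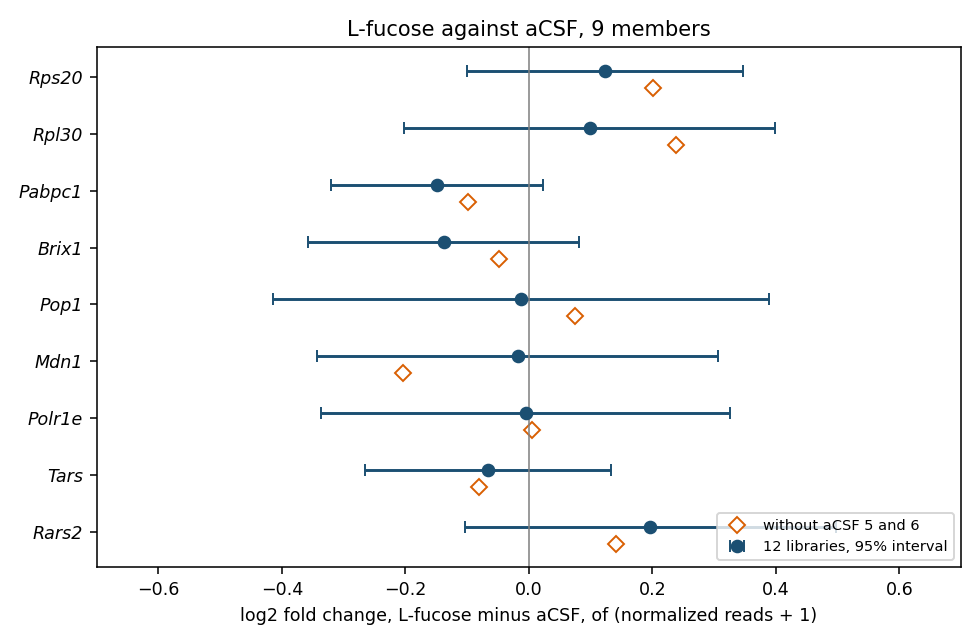
Log2 fold change of L-fucose over aCSF, on the log2(normalized reads + 1) scale, for the 9 genes, as points with 95% intervals over 12 libraries, and as open diamonds without aCSF 5 and 6. All 9 intervals cross 0; the estimates run from -0.15 (Pabpc1) to 0.20 (Rars2), and Mdn1 moves to -0.20 without both libraries.

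The genes differed in how far the libraries of a group lay apart. The SD within groups on the log2 scale was 0.11 for Pabpc1, 0.12 for Tars, 0.14 for Brix1, 0.20 for Rps20, 0.25 for Rars2, 0.28 for Polr1e, 0.31 for Rpl30 and Mdn1, and 0.34 for Pop1. Its median over all tested rows was 0.42, and over the 345 tested rows in register 0.25.

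Compared per kilobase of exon, the ribosomal proteins and Pabpc1 had the highest levels. The mean over 12 libraries was 2161 ± 438 normalized reads per kb for Rpl30, 1854 ± 259 for Rps20 and 986 ± 90.6 for Pabpc1 (SD, n = 12). On this length the spans of mean ± SD of Rpl30 and Rps20 overlapped. Both genes were measured in the same libraries and varied together, so these SDs cannot tell whether Rpl30 and Rps20 differed. With the same reads divided by only the exon bases not shared with another gene, they stood farther apart, at 2872 and 1885. Reads on the unshared bases were not counted apart. Brix1 followed at 275 ± 30.6 and Tars at 180 ± 15.3, then Rars2 at 145 ± 24.3, Polr1e at 79.0 ± 14.7, Pop1 at 48.8 ± 10.5 and Mdn1 at 32.5 ± 6.59 (SD, n = 12 each). Tars and Rars2 were separated by less than the sum of their SDs, as were Pop1 and Mdn1. Each library gave both values of a pair, so these SDs do not decide the order of Tars and Rars2 or of Pop1 and Mdn1. The order within each library was not tested. The exon length counts: per kb of principal transcript, Rpl30 reached 7365, and Pabpc1 at 2288 changed places with Rps20 at 2041. The other 7 kept their places. These lengths come from annotated models, with 4080 exon bases for Rps20 and 3020 for Rpl30, and the longest principal transcript was used. The length of the messages counted was not measured, so the order of Rpl30, Rps20 and Pabpc1 rests on the length chosen.

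Some of the genes varied together from library to library. Over the 10 libraries without aCSF 5 and 6, 2 of 36 pairs passed an adjusted p of 0.05 (permutation test, 100000 resamples, Benjamini-Hochberg over the 36 pairs), by Pearson and by Spearman alike. Rps20 and Rpl30 gave r = 0.951 (permutation p = 7e-05, adjusted p = 0.00252) and rho = 0.952 (permutation p = 0.00012, adjusted p = 0.00432). With the 2 libraries farthest from the median of Rps20 left out, r was 0.942. Within the 6 L-fucose libraries alone it was 0.942. Rpl30 and Pop1 gave r = 0.851 (permutation p = 0.00093, adjusted p = 0.0167) and rho = 0.879 (permutation p = 0.00187, adjusted p = 0.0337), with r = 0.804 without 2 libraries. Rps20 and Pop1 gave r = 0.803, which did not pass (permutation p = 0.00487, adjusted p = 0.0584). The count of passing pairs was 1 without L-fucose 2, 4 or 5, and 5 without aCSF 3. Signs were 13 positive and 23 negative, and the median r was -0.13, so the 9 genes did not vary as a block. Pabpc1 against Rps20, Rpl30 and Pop1 gave -0.627, -0.739 and -0.673, none past the threshold. Over all 12 libraries these were -0.352, -0.329 and -0.334. Within the 6 L-fucose libraries they were -0.825, -0.948 and -0.972, and within the 6 aCSF libraries 0.546, 0.453 and 0.768. Within aCSF without aCSF 5 and 6 they were 0.257, -0.05 and 0.549, so the aCSF values lean on those libraries. The difference between groups was not tested.

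**Figure D3:**
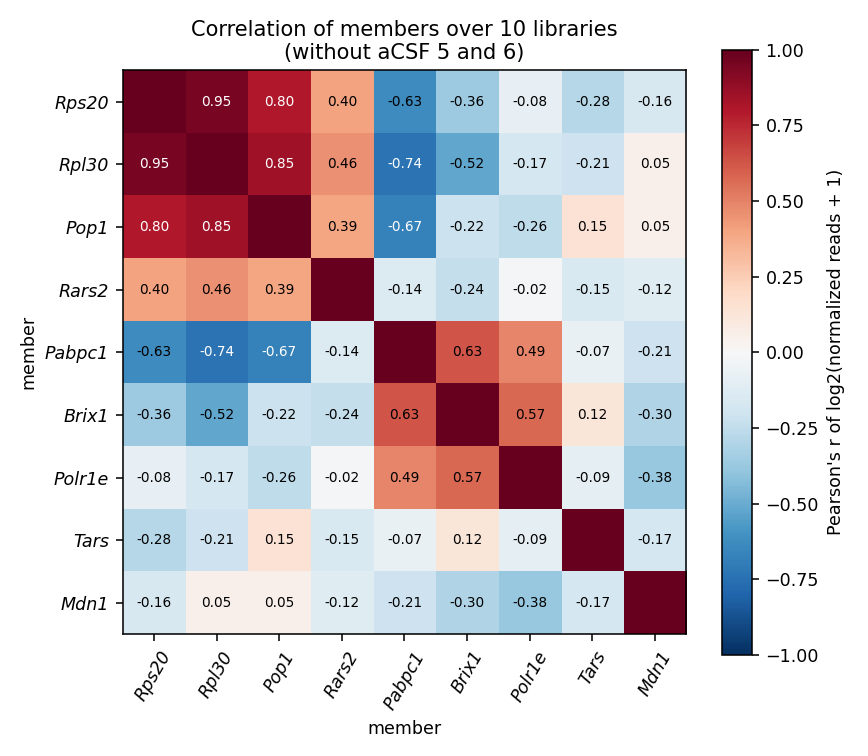
Pearson's r between the log2 levels of each pair of genes over 10 libraries, coloured from -1 (blue) to 1 (red). Rps20, Rpl30 and Pop1 form the block of high positive values (0.80 to 0.95), and Pabpc1 has negative values against all 3 of them in these 10 libraries.

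Which other rows followed each gene was described over the rows in register, with each group's mean subtracted in those 10 libraries, among 287 rows. The row most like Rps20 was Rpl30 (r = 0.944), and the row most like Rpl30 was Sem1, a small subunit of the proteasome (r = 0.955). Pop1 was most like Ndufb6, a subunit of respiratory complex I (r = 0.978). Pabpc1 was most like the GABA-B receptor gene Gabbr2 (r = 0.846), Brix1 like Fam110b (r = 0.856), Mdn1 like Ankrd6 (r = 0.894), Polr1e like Tgfbr1 (r = 0.913), Tars like Smc2 (r = 0.792) and Rars2 like Fam173b (r = 0.896). Each is the best of 287 rows over 10 libraries, so a high r is no finding by itself.

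Rows that followed Rps20, Rpl30 and Pop1 tended to have shorter transcripts than rows that did not. Across the coding rows in register, likeness to a gene was set against the length of the row's principal transcript, a description chosen after the values were seen, with genes not independent. Spearman's rho was -0.411 for Rps20, -0.368 for Rpl30 and -0.369 for Pop1, and 0.28 for Pabpc1. For Rpl30 the median r was 0.301 with the shortest rows (up to 2627 bases) and -0.235 with the longest (4247 bases or more). The longest annotated principal transcript had 3395 bases for Pop1 and 3706 for Rps20. For Rps20 this model has 4 exons and takes in most of the gene, which runs from 3831334 to 3835665. The length of the messages counted was not measured, so whether either is short was not tested.

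The balance of short against long rows itself differed between libraries. It was measured as the median log2 level of 94 short rows minus that of 95 long rows, members left out, each row centred on its mean. It was -0.17 to 0.06 in aCSF (median -0.05) and -0.06 to 0.25 in L-fucose (median 0.02), with L-fucose 4 the highest. Since this measure was made after the pattern with length was seen in the same libraries, its relation to these genes describes that pattern again and is given without a test. Over 10 libraries, r with it was 0.90 for Rps20 (rho = 0.939), 0.833 for Rpl30 (rho = 0.915), 0.655 for Pop1 (rho = 0.636) and -0.67 for Pabpc1 (rho = -0.661). The part of this balance in the fold changes of the genes was not tested.

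**Figure D4:**
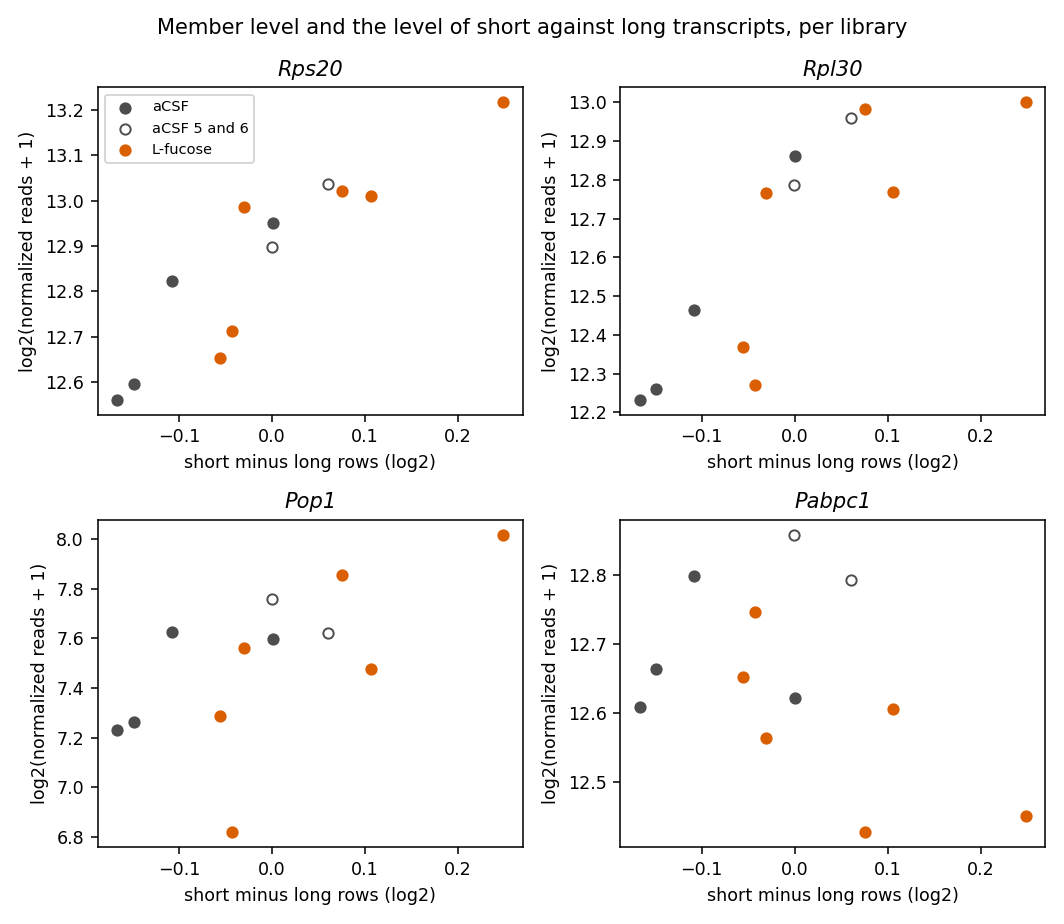
Log2 level of Rps20, Rpl30, Pop1 and Pabpc1 (vertical axes) against the level of short minus long rows (horizontal axes) in 12 libraries; open points are aCSF 5 and 6, which do not enter r. Rps20 and Rpl30 rise along the axis (r = 0.90 and 0.833), and L-fucose 4 lies farthest right at 0.25.

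Of the tested rows in the translation lists 0 passed, as 0 of all 10787 did. The tested rows were 27 of 82 cytosolic ribosomal proteins, 54 rows of assembly factors, 30 of translation factors and poly(A)-binding proteins, 25 of mitochondrial ribosomal proteins, 25 of tRNA and rRNA modification, 4 of RNase P and RNase MRP, 13 of RNA polymerase I, 12 and 8 of cytosolic and mitochondrial tRNA ligases, and 15 of amino acid and growth signalling, members included. Outside the register a row name may not say what was counted, so only 12 other genes are given by value, 11 that met the 500 bp limit and Dnajc21 from the less certain stretch. At an unadjusted limma p under 0.05 there were 0 of these 12, beside 5.96% of all tested rows. Of the estimates, 6 were positive and 6 negative, and the median was 0.04.

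Among assembly factors, Dnajc21, a chaperone partner of the large subunit, went from 884 ± 176 to 955 ± 98.2 normalized reads (SD, n = 6 each; log2 fold change 0.13). Its estimate was 0.30 without aCSF 5 and 6 (limma adjusted p = 0.336), past an unadjusted 0.05 but not the adjusted one. Zfp622 gave 0.09 and Tex10, which works beside Mdn1, -0.20 (95% interval -0.45 to 0.04). Polr2k, a small subunit shared by the RNA polymerases, gave 0.09. Ncbp1, a subunit of the complex that binds the cap of nuclear messenger RNA, gave -0.11. Of the RNA modification and processing genes, Trmo gave 0.53 at a low level, 43.3 ± 13.1 against 66.5 ± 32.0 normalized reads (SD, n = 6 each; 95% interval -0.15 to 1.22), Exosc3 of the RNA exosome 0.28 and Trmt10b -0.18. Mrpl50, a protein of the mitochondrial ribosome, gave 0.10. The amino acid and growth signalling genes Asns, the asparagine synthetase, Rragd and Mios gave -0.01, -0.03 and -0.20.

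**Figure D5:**
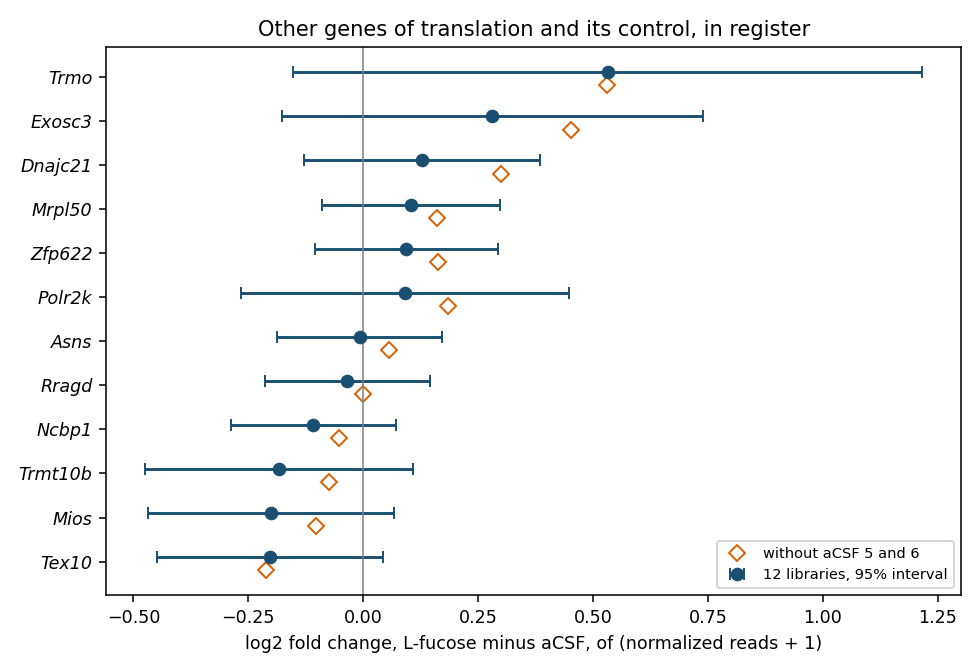
Log2 fold change of L-fucose over aCSF, on the log2(normalized reads + 1) scale, for the 12 other genes of translation in register, as points with 95% intervals over 12 libraries and open diamonds without aCSF 5 and 6. All 12 intervals cross 0; Trmo is highest at 0.53 and has the widest interval, and Tex10 lowest at -0.20.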

How the data were processed

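RNA came from brain sections by a column kit, with poly-T capture of messenger RNA and random-hexamer priming, per the labels' protocols. Per the submitters' processing notes, the mouse build was mm10 and the tools included featureCounts 2.0.3, HISAT2 2.2.1, DESeq2 2.11.40.8 and Trimmomatic 0.39. Which annotation and strand setting served the counting is not given in the sources used here. As its unit, the table deposited by the authors has a normalized signal, reads divided by 1 size factor per library; 100% of values were whole reads within 0.01.

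From these, limma 3.58.1 with an intensity trend was fitted on log2(value + 1) for rows with at least 10 in at least 6 libraries. Count tests used the recovered reads (edgeR 4.0.16, DESeq2 1.42.0). Positions are GRCm38 from GENCODE. Register was scanned in windows of 80 rows at displacements up to 600 kb in 500 bp steps. The scan and the fit were tested on simulated data. The scan called 92.1% of undisplaced rows in register and 0 of 29528 displaced rows. With 6 against 6 libraries, the fit called 32 of 88 rows set to differ by 1 log2 unit. It called 10 of 107 rows set to differ by 0.5 log2 units, and 4 of 10434 set not to differ. A row that did not pass may therefore still differ between the groups. The members and lists were chosen with earlier results of these data known. All 9 members, every list and marker row in register, and the most similar row per member are named. Alternatives covered normalization, test, filter, pseudocount, left-out libraries and a replicate block.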

Additional observations from a re-analysis of the deposited data

How the results depend on the processing

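Under 28 alternatives, the 9 genes gave 252 values. Of these, 225 kept their direction, 27 reversed and 0 passed; the lowest adjusted p was 0.486. The reversals were all in Pop1, Mdn1 and Polr1e, whose estimates lie near 0. Pop1 was 0.02508 with edgeR's TMM factors, 0.02384 with RLE factors, 0.03993 with upper-quartile factors, 0.04662 with size factors from rows in register, 0.02495 with DESeq2 and 0.07435 without aCSF 5 and 6. Mdn1 was 0.04121 with size factors from rows in register. Polr1e was 0.008083 with upper-quartile factors, 0.05422 with size factors from rows in register, 0.00342 with limma-voom and 0.00558 without aCSF 5 and 6. Leaving out 1 library at a time gave -0.1156 to 0.1242 for Pop1, -0.1389 to 0.06185 for Mdn1 and -0.08613 to 0.06549 for Polr1e. For the others it gave 0.07 (without L-fucose 4) to 0.18 for Rps20, 0.03 (without aCSF 4) to 0.18 (without L-fucose 6) for Rpl30, -0.18 to -0.12 for Pabpc1, -0.19 to -0.09 (without aCSF 5) for Brix1, -0.11 (without L-fucose 1) to -0.03 (without L-fucose 6) for Tars and 0.10 (without aCSF 4) to 0.26 (without aCSF 1) for Rars2. The cause was not tested. DESeq2 called 1 row and the main test 0; edgeR with TMM factors called 0 and had 604 rows at an unadjusted p under 0.05. The count of correlated pairs was 4 over all 12 libraries, 3 with library totals, 3 with group means subtracted and 1 to 5 with 1 library left out (1 without L-fucose 2, 4 or 5, and 5 without aCSF 3). With principal transcript length, 7 of 9 genes kept their place in the order of levels. The labels use the same WT numbers in both groups and do not say whether the same number is the same animal. Libraries with the same number showed little shared deviation (correlations from -0.168 to 0.17). Only aCSF 2 was most like the L-fucose library of its own number. Low correlations cannot show that the animals differ, so whether the numbers pair the libraries is not known. The replicate block called 0 rows in limma and in edgeR, and changed no call. At an unadjusted p under 0.05, limma had 585 rows with the block and 643 without, and edgeR 515 and 604. Depth limits these genes little: the log2 SD that counting alone would give was 0.02 for Rps20, Rpl30 and Pabpc1 and 0.11 for Pop1, the lowest of the 9, against 0.34 measured within groups for Pop1. Labels that tie no library to an animal, and names that hold for rows in register alone, limit what the comparison covers.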
